A study of Mus musculus with 9 samples.

Results

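The 41 genes described here are interferon-response genes and guanylate-binding genes, measured by RNA-seq in injured mouse leg muscle. They were chosen by gene symbol from a table of 55335 genes, and all 41 were among the 18259 genes with enough counts to be tested. The study compared leg muscles of WT c57b6l mice that had all undergone the hindlimb injury the labels call a hindlimb suspension ischemia model. Mice given aspirin combined with a peptide hydrogel are called the Hydrogel group, mice given aspirin alone the Aspirin group, and untreated mice the Control group, with 3 mice in each. The Control mice were injured too, so no comparison here shows the effect of the injury itself. The labels give no dose, time after injury, sex or sequencing batch. They mark each mouse with a code made of a first and a second number, whose meaning is not stated. The 3 Hydrogel mice share a first number and the 3 Control mice share another, while Aspirin replicate 3 carries a different first number from Aspirin replicates 1 and 2. No first number occurs in more than 1 group, so the first number and treatment cannot be told apart. The second number does recur across groups, but it is not the replicate number used below.

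Interferons are secreted signals that act through JAK kinases and STAT transcription factors. Type I interferons activate a complex that includes STAT2 and IRF9 and binds interferon-stimulated response elements (ISREs) and induces antiviral genes such as the Ifit, Oas and Mx families. Interferon gamma, made mainly by T cells and natural killer cells, acts through gamma-activated sites (GAS) and induces IRF1, guanylate-binding proteins (Gbp), immunity-related GTPases (such as Irgm1 and Igtp) and the T-cell attracting chemokine CXCL9. The division is one of degree, since many genes answer both signals. The type I class below holds 10 Ifit, Oas and Mx genes, and the gamma-type class holds 13 genes, namely 8 Gbp genes, 4 immunity-related GTPases and Cxcl9; the other 18 genes are in neither class.

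Depth was similar across libraries, at 32197791 to 48170537 counts each, and 3 counts corresponded to 0.0554 to 0.1 CPM, where CPM is the count per 1000000 counts of the scaled library. Every one of the 41 genes had counts in all 9 libraries, the lowest being 2 counts of Gbp11 in Hydrogel replicate 3. Library sizes were scaled with TMM, a method that assumes most genes do not change between libraries. The muscle label held, since creatine kinase Ckm was present at 3110 to 38700 CPM in every library. The summed CPM of 10 muscle-fibre genes was uneven, however, from 21500 in Aspirin replicate 1 to 279000 in Hydrogel replicate 3. In bulk tissue, fewer cells of a type and less RNA per cell cannot be told apart. The 3 mice of a group are described as separate animals, and the p-values measure the spread between these animals.

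Promoter stretches are shown first because interferons act on these genes through elements near their starts. Of the 41 genes, 28 matched the RefSeq promoter table (build GRCm38.p6, 250 bases before to 50 after each start), and the windows below lie upstream of that start. Capitals mark the ISRE core searched for, GAAANNGAA (TTCNNTTTC on the other strand), and the GAS letters, TTCNNNGAA, which read the same on both strands. Each window is 90 bases long and is printed 5′ to 3′ on the strand of its gene. Ifit1 (chr19:34640765-34640854, plus strand) and Ifit3 (chr19:34583387-34583476, plus strand) stand for the type I class. Irf1 (chr11:53769884-53769973, plus strand) carries a GAS match and no ISRE core in its window. Gbp7 (chr3:142530244-142530333, plus strand), Igtp (chr11:58199466-58199555, plus strand) and Irgm2 (chr11:58214873-58214962, plus strand) stand for the gamma-type class, and Cxcl10 (chr5:92349050-92349139, minus strand) for the chemokines.
Ifit1: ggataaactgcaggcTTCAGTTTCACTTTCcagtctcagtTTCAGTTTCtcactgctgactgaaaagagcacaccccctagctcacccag
Ifit3: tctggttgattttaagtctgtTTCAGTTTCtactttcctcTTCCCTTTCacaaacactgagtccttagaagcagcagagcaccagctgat
Irf1: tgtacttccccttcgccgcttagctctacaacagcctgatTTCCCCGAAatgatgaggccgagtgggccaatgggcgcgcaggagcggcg
Gbp7: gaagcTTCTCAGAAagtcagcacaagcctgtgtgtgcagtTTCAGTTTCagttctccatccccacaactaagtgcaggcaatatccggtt
Igtp: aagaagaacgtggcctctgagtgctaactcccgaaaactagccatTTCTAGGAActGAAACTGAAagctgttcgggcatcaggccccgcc
Irgm2: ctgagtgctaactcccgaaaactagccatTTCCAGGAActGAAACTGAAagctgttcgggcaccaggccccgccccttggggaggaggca
Cxcl10: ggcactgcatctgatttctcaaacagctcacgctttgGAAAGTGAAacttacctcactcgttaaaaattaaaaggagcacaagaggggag

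The Ifit1 window held 3 ISRE cores, a pair of which overlap, and the Ifit3 window held 2. The Gbp7, Igtp and Irgm2 windows each held 1 ISRE core and 1 GAS match. Igtp and Irgm2 were nearly the same: over the 74 bases that align, they differed at 2 positions, T33C and T63C (Igtp base first, position counted from the 5′ end of the Irgm2 window). An ISRE core was present in 21 of the 28 promoters (75%), against 2638 of 27025 genes in the whole table (9.76%). By class it was found in 8 of 8 gamma-type and 5 of 7 type I promoters. GAS letters were present in 8 of the 28 promoters (28.6%), against 9.55% of all genes, and in 4 of 8 gamma-type and 2 of 7 type I promoters. A match describes letters in this window and not a site in use; where there was none, it says only that these letters are not in this window.

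Tested with edgeR (quasi-likelihood, Benjamini-Hochberg adjustment over all genes), 0 of the 41 genes reached an adjusted p under 0.05 in any of the 3 comparisons. The test called 0% of all 18259 genes in each comparison and 0% for any difference between the 3 groups, so every direction given below is a measured value and not a called change. At an unadjusted p under 0.05, 2 of 41 genes passed in Hydrogel against Control (Gbp11 and Cxcl10), where the background over all genes was 3.92%. In Aspirin against Control 3 passed (Gbp11, Irgm2 and Gbp6; background 6.48%), and in Hydrogel against Aspirin 0 passed (background 10.9%). For any difference between the 3 groups 4 passed (Gbp11, Irgm2, Gbp6 and Cxcl10; background 6.97%). The counts in the comparisons with Control were few and close to the background share, and in Hydrogel against Aspirin no member passed although the background was highest there. DESeq2, run as an alternative, called Gbp11 alone among the 40 members it gave an adjusted p, in both comparisons with Control, where it called 0.0997% of all genes for Hydrogel and 0.613% for Aspirin. It called no member in Hydrogel against Aspirin (0.957% of all genes), and it gave no adjusted p to Cxcl10. The comparisons of Hydrogel and of Aspirin with Control use the same 3 Control libraries, so their values below are not independent of each other.

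**Figure D1:**
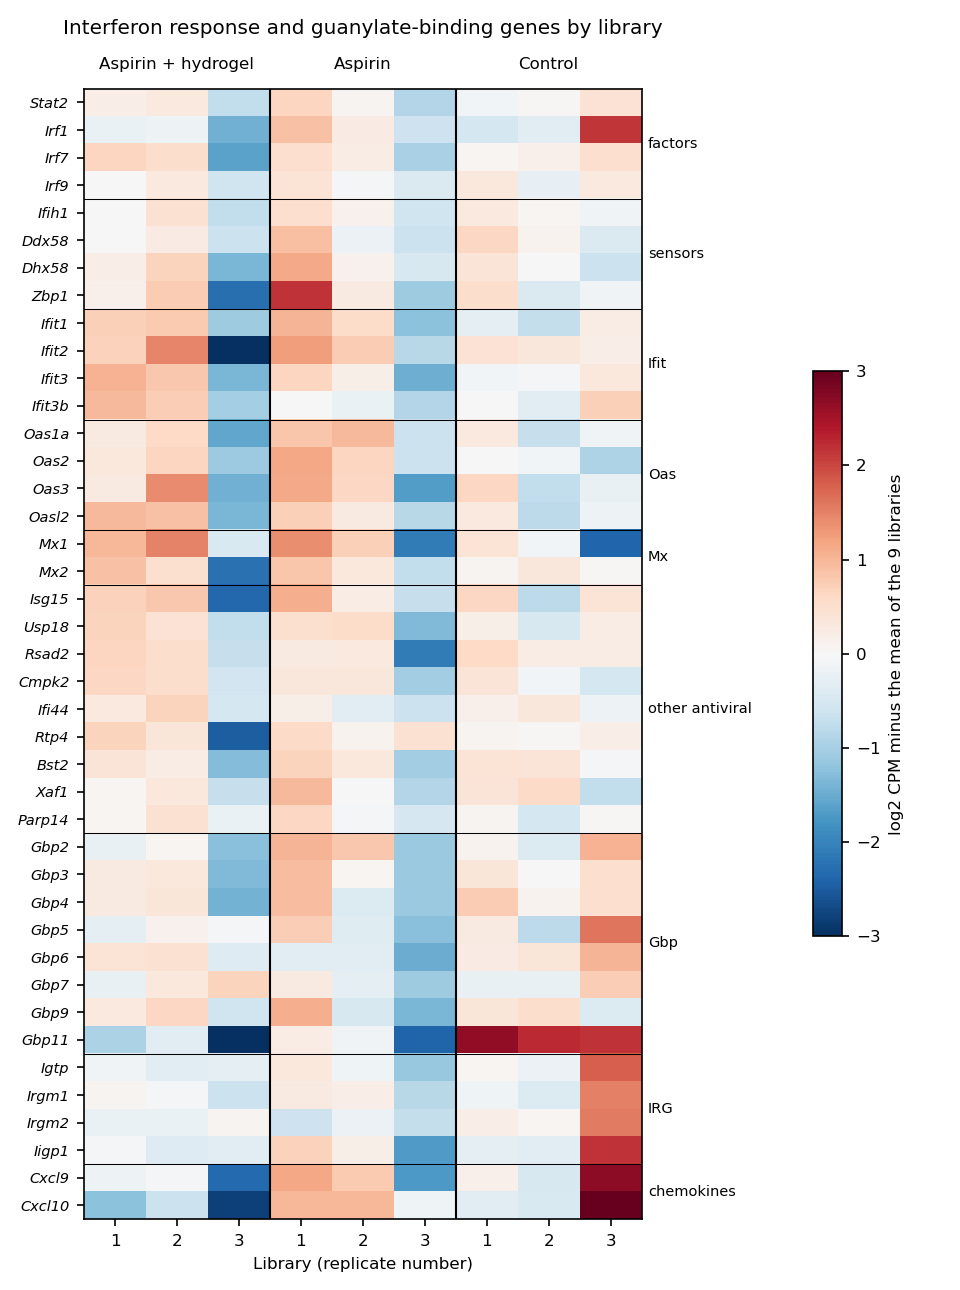
Heat map of log2 CPM for the 41 genes (rows, in blocks by role) in the 9 libraries (columns), each gene centred on its mean over the 9 libraries. Hydrogel replicate 3 and Aspirin replicate 3 are blue for most genes, and Control replicate 3 is red for the immunity-related GTPases, the chemokines and Irf1 while Mx1 is blue there.

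With all 9 libraries the 2 classes had medians on opposite sides of Control, but both the side and the size depended on single mice and on the fit. In Hydrogel against Control all 10 type I genes had a log2 fold change above 0 (median 0.41, range 0.05 to 1.16), while 12 of 13 gamma-type genes lay below 0 (median -0.74). In Aspirin against Control 8 of 10 type I genes lay above 0 (median 0.38) and 12 of 13 gamma-type genes below 0 (median -0.74). Without Control replicate 3 the gamma-type medians shrank to -0.23 for Hydrogel and -0.02 for Aspirin, and without Aspirin replicate 1 the type I median in Aspirin against Control was -0.09. With the replicate number as a block, the type I medians were 0.10 in Hydrogel against Control, with 3 of 10 genes below 0, and 0.07 in Aspirin against Control, with 4 of 10 below 0. Hydrogel against Aspirin showed little split, with medians of 0.02 for type I and -0.12 for gamma-type genes. Over the whole set, 24, 23 and 25 of 41 genes lay below 0 in these 3 comparisons, set beside 52.9%, 46% and 53.3% of all genes tested. The medians of all genes tested were -0.03, 0.05 and -0.05 on the same log2 scale. Scaling by library size alone shifted these to -0.26, 0.27 and -0.51, and the type I medians to 0.26, 0.74 and -0.51, so the type I median in Hydrogel against Aspirin turned negative; the gamma-type medians kept their sign at -0.89, -0.26 and -0.65.

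By library, the mean log2 CPM of the type I class was 3.34, 3.56 and 1.06 in the Hydrogel mice, 3.52, 3.11 and 1.53 in the Aspirin mice, and 2.81, 2.35 and 2.40 in the Control mice. The gamma-type class stood at 3.90, 4.03 and 3.12 in the Hydrogel mice, 4.48, 3.94 and 2.67 in the Aspirin mice, and 4.31, 4.0 and 5.26 in the Control mice. Both classes were lowest in replicate 3 of each treated group, and the gamma-type class was highest in Control replicate 3. The gamma-type mean minus the type I mean averaged 1.03 ± 0.89 in the Hydrogel group, 0.97 ± 0.15 in the Aspirin group and 2.0 ± 0.74 in the Control group (SD, n = 3 each). The Aspirin values, 0.95, 0.83 and 1.14, all lay below the Control values of 1.5, 1.65 and 2.85. The Hydrogel values, 0.56, 0.48 and 2.07, overlapped with Control through replicate 3. No p is given for these means, because the classes were defined with results of these data known.

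**Figure D2:**
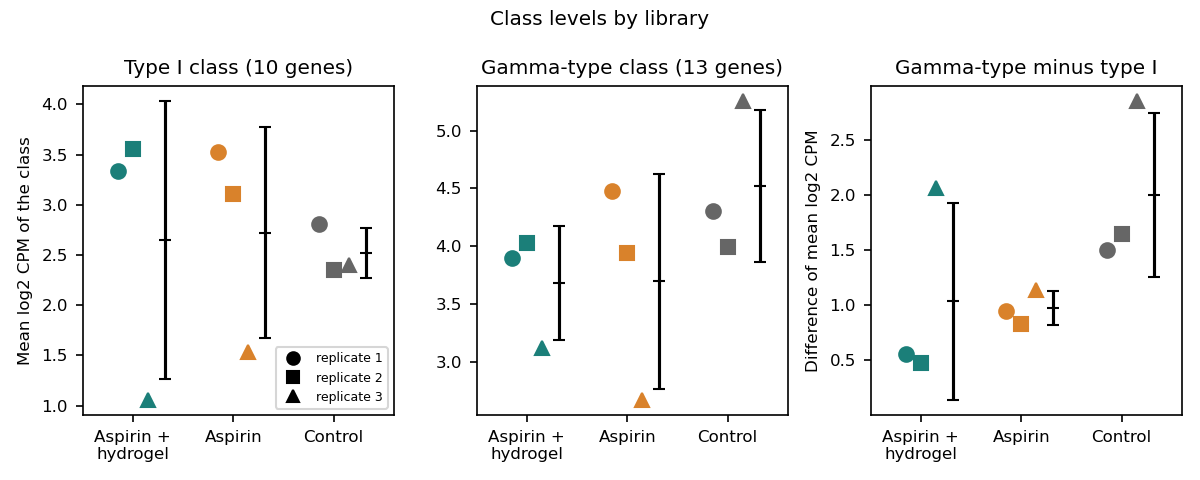
Mean log2 CPM of the type I class (left), of the gamma-type class (middle) and their difference (right) in each of the 9 libraries, with the group mean and SD (n = 3) beside the points. Type I levels of the Control mice, 2.35 to 2.81, lie within the range of both treated groups, and the difference is highest in Control replicate 3 at 2.85.

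Among the transcription factors that carry the signal, Irf1 varied most. IRF1 is induced by interferon gamma and itself drives Gbp and chemokine genes. Irf1 had 17.9, 18.5 and 7.58 CPM in the Hydrogel mice, 38.1, 24.7 and 13.4 CPM in the Aspirin mice and 14.4, 16.6 and 91.3 CPM in the Control mice. Control replicate 3 was 5.89 times the mean of the other 2 Control mice, which lay inside the range of both treated groups. Irf1 gave a log2 fold change of -1.47 (SE 0.74, 95% interval -3.15 to 0.20, edgeR unadjusted p = 0.0782, adjusted p = 0.987) in Hydrogel against Control, and -0.68 (SE 0.73) in Aspirin against Control. Without Control replicate 3 the value for Hydrogel against Control was -0.09.

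Stat2 and Irf9, which encode members of the ISRE-binding complex, lay close together between groups. Stat2 had 16.6, 17.8 and 8.71 CPM in the Hydrogel mice, 22.8, 15.3 and 7.94 CPM in the Aspirin mice and 13.8, 14.9 and 19.5 CPM in the Control mice. For Irf9 the values were 15.6, 19.3 and 10.3 CPM in the Hydrogel mice, 20.7, 15.3 and 11.6 CPM in the Aspirin mice and 19.6, 13.1 and 19 CPM in the Control mice. Irf7, the factor that amplifies interferon alpha production, had 21.8, 20 and 4.57 CPM in the Hydrogel mice, 19.6, 16.1 and 7.03 CPM in the Aspirin mice and 14.4, 15.3 and 19.6 CPM in the Control mice. For all 3 genes the groups overlapped and both treated groups held their lowest value in replicate 3. Their log2 fold changes in the 3 comparisons lay between -0.20 and 0.12, and the 95% intervals all spanned 0.

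The sensors of viral RNA and foreign nucleic acid were represented by Ifih1 (MDA5), Ddx58 (RIG-I), Dhx58 (LGP2) and Zbp1. All 4 had their highest value in Aspirin replicate 1. Zbp1, a nucleic acid sensor that can trigger necroptosis, had 7.28, 11 and 1.37 CPM in the Hydrogel mice, 29.3, 7.89 and 3.14 CPM in the Aspirin mice and 9.37, 4.8 and 6.05 CPM in the Control mice. Its log2 fold change in Aspirin against Control was 0.99 (SE 0.86, 95% interval -0.95 to 2.94, edgeR unadjusted p = 0.277, adjusted p = 0.815), and without Aspirin replicate 1 it turned to -0.30. The other 3 sensors had log2 fold changes between -0.37 and 0.46 across the 3 comparisons.

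The Ifit family, whose proteins bind viral RNA and block its translation, ran lowest in replicate 3 of each treated group. Ifit1 had 11, 11.5 and 3.2 CPM in the Hydrogel mice, 13.5, 9.77 and 2.86 CPM in the Aspirin mice and 5.54, 4.07 and 7.85 CPM in the Control mice. Replicates 1 and 2 of both treated groups were above every Control mouse, and replicate 3 of both was below every Control mouse. Ifit3 showed the same order in the Hydrogel group but not in the Aspirin group, at 34.9, 29.9 and 6.61 CPM in the Hydrogel mice, 26.6, 19.3 and 6.14 CPM in the Aspirin mice and 16, 16.4 and 21.3 CPM in the Control mice. In log2 fold change Ifit1 stood at 0.56 (SE 0.62) in Hydrogel against Control and 0.58 (SE 0.62) in Aspirin against Control.

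Ifit2 spread most widely of the family, with 12.1, 20.7 and 0.367 CPM in the Hydrogel mice, 17.7, 12.7 and 4.2 CPM in the Aspirin mice and 10.1, 9.49 and 8.49 CPM in the Control mice. The 3 Control mice lay close together, inside the range of the Hydrogel mice. Ifit3b had 10.8, 9.13 and 2.7 CPM in the Hydrogel mice, 5.57, 4.8 and 2.97 CPM in the Aspirin mice and 5.58, 4.33 and 9.02 CPM in the Control mice. It was the type I gene with the smallest p in Hydrogel against Aspirin, where its log2 fold change was 0.76 (SE 0.52, 95% interval -0.41 to 1.93, edgeR unadjusted p = 0.176, adjusted p = 0.544). Ifit3 and Ifit3b are near copies: 51.2% of the 50-base stretches of Ifit3 transcripts also occur in Ifit3b, so the split of reads between them is uncertain.

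The oligoadenylate synthetases make the second messenger that activates RNase L, an RNA-degrading enzyme. Oas2 had 13.6, 17.1 and 5.11 CPM in the Hydrogel mice, 24.5, 17 and 6.97 CPM in the Aspirin mice and 10.9, 10.4 and 5.79 CPM in the Control mice. Its log2 fold change in Aspirin against Control was 0.84 (SE 0.54, 95% interval -0.39 to 2.07, edgeR unadjusted p = 0.156, adjusted p = 0.772), the smallest p of the type I class in that comparison. Oas1a, for which 57.6% of 50-base stretches are shared with Oas1g, had 8.49, 10.7 and 2.4 CPM in the Hydrogel mice, 12.5, 13.8 and 4.52 CPM in the Aspirin mice and 8.67, 4.33 and 6.49 CPM in the Control mice. Both genes overlapped between all groups.

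Oasl2, an Oas-like gene, had 35.7, 33.5 and 7.14 CPM in the Hydrogel mice, 30.1, 22.1 and 10.3 CPM in the Aspirin mice and 22.6, 10.7 and 16.5 CPM in the Control mice. Hydrogel replicates 1 and 2 were the highest of the 9 libraries and replicate 3 the lowest. It gave a log2 fold change of 0.62 (SE 0.60) in Hydrogel against Control. Oas3 was scarcer, at 0.829 to 7.07 CPM over the 9 libraries.

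Mx1 and Mx2 belong to a family of dynamin-like GTPases known for trapping viral nucleoproteins. RNA levels do not show whether these mice make a working protein from either gene. Mx1 had 5.13, 7.19 and 1.87 CPM in the Hydrogel mice, 6.68, 4.19 and 0.6 CPM in the Aspirin mice and 3.4, 2.43 and 0.494 CPM in the Control mice. It was the only member whose lowest library was Control replicate 3, at 0.17 times the mean of the other 2 Control mice. Its log2 fold change in Hydrogel against Control, 1.16 (SE 0.91, 95% interval -0.90 to 3.21, edgeR unadjusted p = 0.234, adjusted p = 0.987), was the highest of the type I class. Mx2, which the annotation calls a polymorphic pseudogene, ranged from 0.367 to 3.19 CPM.

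Of the 9 other antiviral effectors and regulators, 5 lay above 0 in Hydrogel against Control (median 0.05) and 6 in Aspirin against Control (median 0.05). Isg15, a ubiquitin-like modifier, had 4.74, 5.08 and 0.567 CPM in the Hydrogel mice, 6.18, 3.42 and 1.8 CPM in the Aspirin mice and 4.51, 1.7 and 3.87 CPM in the Control mice. Rsad2 (viperin), which makes a chain-terminating nucleotide, had 18.1, 16.6 and 7.18 CPM in the Hydrogel mice, 13.9, 14.2 and 2.69 CPM in the Aspirin mice and 17.6, 13.5 and 13.6 CPM in the Control mice. Groups overlapped for both genes, and a replicate 3 library of a treated group was the lowest of the 9.

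Parp14, an ADP-ribosyltransferase, had 36.1, 47.7 and 30.1 CPM in the Hydrogel mice, 53.6, 34.2 and 24.5 CPM in the Aspirin mice and 36.9, 24.3 and 35.9 CPM in the Control mice. Ifi44 had 2.88, 3.72 and 1.64 CPM in the Hydrogel mice, 2.65, 1.87 and 1.51 CPM in the Aspirin mice and 2.62, 2.99 and 2.12 CPM in the Control mice. Neither gene separated any pair of groups. The other 5 genes of this block, Usp18 (which removes ISG15), Cmpk2, Rtp4, Bst2 (tetherin) and Xaf1, had log2 fold changes between -0.36 and 0.31 across the 3 comparisons.

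Gbp11 had the smallest p of the 41 genes in both comparisons with Control, at a low level. Guanylate-binding proteins are large GTPases that coat and disrupt intracellular pathogens and their vacuoles. Gbp11 had 0.387, 0.604 and 0.0667 CPM in the Hydrogel mice, 0.878, 0.703 and 0.143 CPM in the Aspirin mice and 4.73, 3.53 and 3.37 CPM in the Control mice. In counts these were 16, 20 and 2 in the Hydrogel mice, 46, 30 and 5 in the Aspirin mice and 256, 158 and 116 in the Control mice. All 6 treated mice lay below all 3 Control mice. The log2 fold change was -3.44 (SE 0.82, 95% interval -5.30 to -1.58, edgeR unadjusted p = 0.00239, adjusted p = 0.987) in Hydrogel against Control and -2.74 (SE 0.79, 95% interval -4.52 to -0.95, edgeR unadjusted p = 0.00709, adjusted p = 0.753) in Aspirin against Control, lower in 3 of 3 mice each time. DESeq2 gave adjusted p-values of 0.0124 and 0.0427 for the same 2 comparisons. Without any 1 of the 9 libraries, the edgeR log2 fold change stayed between -4.06 and -2.98 in Hydrogel against Control and between -3.18 and -2.27 in Aspirin against Control.

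The Gbp11 gene lies at chr5:105323042-105346472 on the minus strand (mm10, GENCODE vM21), within a cluster of Gbp genes, and is annotated as a polymorphic pseudogene. Of its 50-base stretches, 19.2% also occur in other genes, most often in Gbp8 (9.57%). Gbp8 itself had 0.798, 3.57 and 0.1 CPM in the Hydrogel mice, 8.09, 1.83 and 0.2 CPM in the Aspirin mice and 5.51, 0.916 and 1.11 CPM in the Control mice, with no separation of groups.

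Gbp6, on the same strand of chromosome 5 (chr5:105270702-105293698), was lower in the Aspirin mice. It had 21, 21.6 and 12.1 CPM in the Hydrogel mice, 12.7, 12.4 and 5.63 CPM in the Aspirin mice and 18.6, 20.2 and 31.8 CPM in the Control mice. All 3 Aspirin mice lay below all 3 Control mice, and the Hydrogel mice overlapped with both groups. Gbp6 gave a log2 fold change of -1.20 (SE 0.38, 95% interval -2.06 to -0.34, edgeR unadjusted p = 0.0117, adjusted p = 0.753) in Aspirin against Control and 0.83 (SE 0.38, 95% interval -0.02 to 1.69, edgeR unadjusted p = 0.0547, adjusted p = 0.458) in Hydrogel against Aspirin. Gbp6 counts are uncertain, because 70.7% of its 50-base stretches are shared with other genes, most with the overlapping gene model Gm43302 (65%). Gbp10, a gene of the same cluster that is not among the 41, had 44.1, 45.9 and 30.3 CPM in the Hydrogel mice, 12.5, 19.2 and 7.94 CPM in the Aspirin mice and 23.9, 28.2 and 32.5 CPM in the Control mice. The 3 Aspirin mice all lay below the 3 Control mice as well as below the 3 Hydrogel mice, and the Hydrogel and Control mice overlapped. In Hydrogel against Aspirin the log2 fold change of Gbp10 was 1.60 (SE 0.33, 95% interval 0.85 to 2.35, edgeR unadjusted p = 0.000925, adjusted p = 0.453). DESeq2 gave an adjusted p of 0.00388 for that comparison. Stretches shared with other genes were not counted for Gbp10.

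The other Gbp genes did not separate any groups. Gbp2 had 22.3, 26.9 and 10.9 CPM in the Hydrogel mice, 52.3, 45.3 and 12 CPM in the Aspirin mice and 27.9, 19.7 and 53.2 CPM in the Control mice. Its highest values came from Control replicate 3 and Aspirin replicates 1 and 2. Gbp5, which promotes inflammasome activation, had 8.25, 11 and 9.71 CPM in the Hydrogel mice, 16.6, 7.85 and 4.23 CPM in the Aspirin mice and 12, 5.79 and 30.3 CPM in the Control mice. Gbp7 had 16.3, 23.8 and 30.6 CPM in the Hydrogel mice, 23.1, 15.8 and 9.17 CPM in the Aspirin mice and 16.5, 16.4 and 32.2 CPM in the Control mice, and was the 1 gamma-type gene above 0 in Hydrogel against Control, at a log2 fold change of 0.12 (SE 0.41). Gbp2 was the 1 gamma-type gene above 0 in Aspirin against Control, at 0.12 (SE 0.58). Gbp3, Gbp4 and Gbp9 had log2 fold changes between -0.54 and 0.08 over the 3 comparisons.

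The 4 immunity-related GTPases belong to a family that acts in defence against intracellular parasites. All 4 were lower than Control on average in both treated groups (medians -0.98 for Hydrogel and -1.03 for Aspirin). Irgm2 had 34.9, 34.9 and 41.9 CPM in the Hydrogel mice, 26, 35.4 and 24.1 CPM in the Aspirin mice and 45.9, 41.3 and 117 CPM in the Control mice. Its 3 Aspirin mice lay below all 3 Control mice, while Hydrogel replicate 3 reached just above the lowest Control mouse. The log2 fold change of Irgm2 was -1.25 (SE 0.39, 95% interval -2.14 to -0.37, edgeR unadjusted p = 0.0109, adjusted p = 0.753) in Aspirin against Control and -0.87 (SE 0.39, 95% interval -1.75 to 0.01, edgeR unadjusted p = 0.0525, adjusted p = 0.987) in Hydrogel against Control. Without Control replicate 3 these values were -0.60 for Aspirin and -0.23 for Hydrogel.

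Igtp (IRGM3) had 22.9, 19.5 and 20.1 CPM in the Hydrogel mice, 30.7, 22.3 and 11.2 CPM in the Aspirin mice and 25.6, 21.6 and 85.6 CPM in the Control mice. Irgm1 had 33.7, 30.6 and 20.6 CPM in the Hydrogel mice, 38.7, 36.4 and 18 CPM in the Aspirin mice and 29.2, 24.1 and 91.6 CPM in the Control mice. For Iigp1 (IRGA6) the values were 32.7, 25.4 and 26.7 CPM in the Hydrogel mice, 53.8, 37.7 and 10.3 CPM in the Aspirin mice and 27.6, 27 and 151 CPM in the Control mice. In all 3 genes Control replicate 3 stood far above the other 8 libraries, at 3.63, 3.44 and 5.53 times the mean of the other 2 Control mice, which overlapped with the treated mice. The log2 fold changes in Hydrogel against Control were -1.09 (SE 0.54) for Igtp, -0.77 (SE 0.52) for Irgm1 and -1.28 (SE 0.75) for Iigp1. Igtp and Irgm2 share 162 exonic bases on the same strand, which could place some reads of one on the other.

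**Figure D3:**
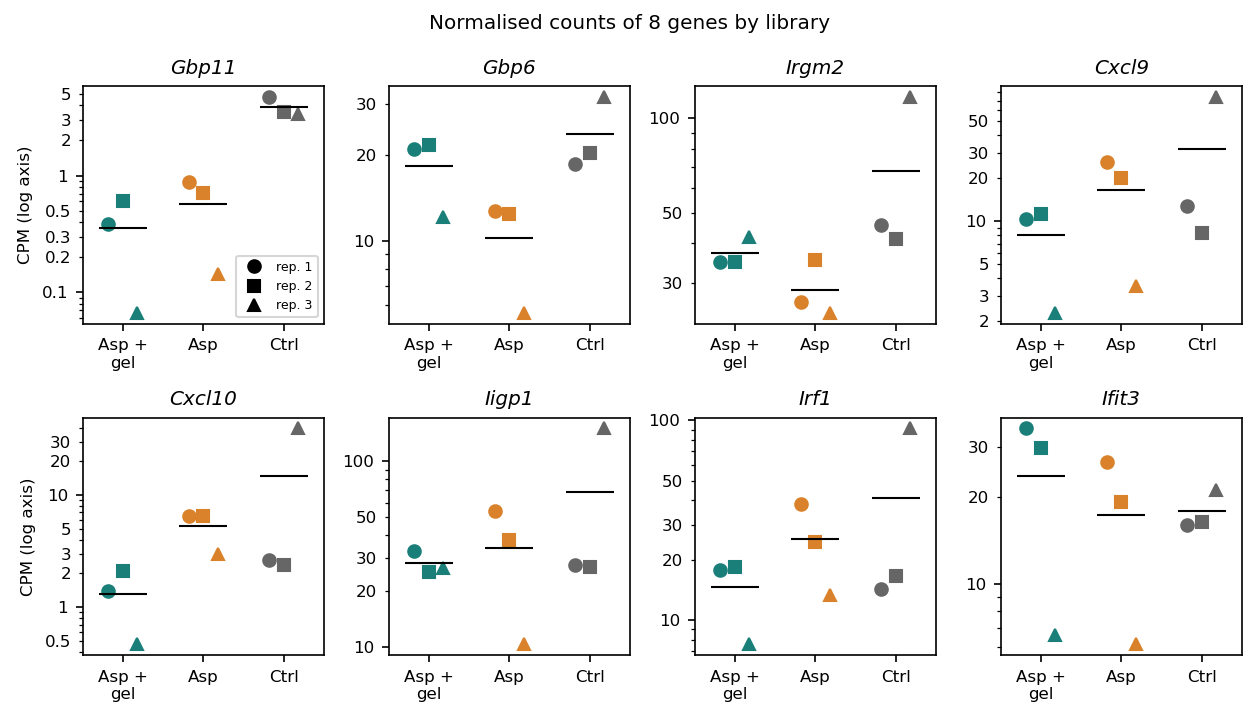
CPM (log axis) of Gbp11, Gbp6, Irgm2, Cxcl9, Cxcl10, Iigp1, Irf1 and Ifit3 in each library of the Hydrogel (Asp + gel), Aspirin (Asp) and Control (Ctrl) groups, with the group mean as a bar. Of these genes Gbp11 alone keeps all 6 treated mice well below all 3 Control mice; Control replicate 3 stands apart for Irgm2, Cxcl9, Cxcl10, Iigp1 and Irf1.

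The chemokines CXCL9 and CXCL10 attract activated T cells through the receptor CXCR3. Cxcl9 had 10.4, 11.3 and 2.3 CPM in the Hydrogel mice, 26, 20 and 3.52 CPM in the Aspirin mice and 12.9, 8.31 and 74.3 CPM in the Control mice. Control replicate 3 was 7.0 times the mean of the other 2 Control mice, and those 2 lay inside the range of the Aspirin mice. Cxcl9 gave a log2 fold change of -1.99 (SE 1.00, 95% interval -4.25 to 0.27, edgeR unadjusted p = 0.0779, adjusted p = 0.987) in Hydrogel against Control and -0.95 (SE 0.97) in Aspirin against Control.

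Cxcl10 had 1.4, 2.09 and 0.467 CPM in the Hydrogel mice, 6.51, 6.47 and 3 CPM in the Aspirin mice and 2.62, 2.39 and 39.4 CPM in the Control mice. All 3 Hydrogel mice lay below all 3 Control mice and below all 3 Aspirin mice. The log2 fold change of Cxcl10 was -3.48 (SE 1.13, 95% interval -6.04 to -0.93, edgeR unadjusted p = 0.0132, adjusted p = 0.987) in Hydrogel against Control and -2.01 (SE 1.07, 95% interval -4.43 to 0.41, edgeR unadjusted p = 0.0935, adjusted p = 0.483) in Hydrogel against Aspirin. In Aspirin against Control it was -1.47 (SE 1.04), and without Control replicate 3, which held 15.7 times the mean of the other 2 Control mice, it turned to 1.10. Leaving out the same mouse reduced the Hydrogel value to -0.94. Of Cxcl10 exons, 5.91% overlap Art3 on the opposite strand, and whether counting used strand is not given in the sources used here.

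Counting groups that did not overlap, 2 of 41 genes lay lower in Hydrogel than in Control (Gbp11 and Cxcl10), against a background of 6.3% of all genes tested. In Aspirin against Control 3 genes lay lower (Gbp11, Gbp6 and Irgm2; background 5.44%), and in Hydrogel against Aspirin 1 gene did (Cxcl10; background 8.75%). No gene lay higher without overlap in any of these comparisons, where 6.85%, 5.54% and 7.46% of all genes did. The counts of lower genes were near the background in the comparisons with Control and below it in Hydrogel against Aspirin.

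**Figure D4:**
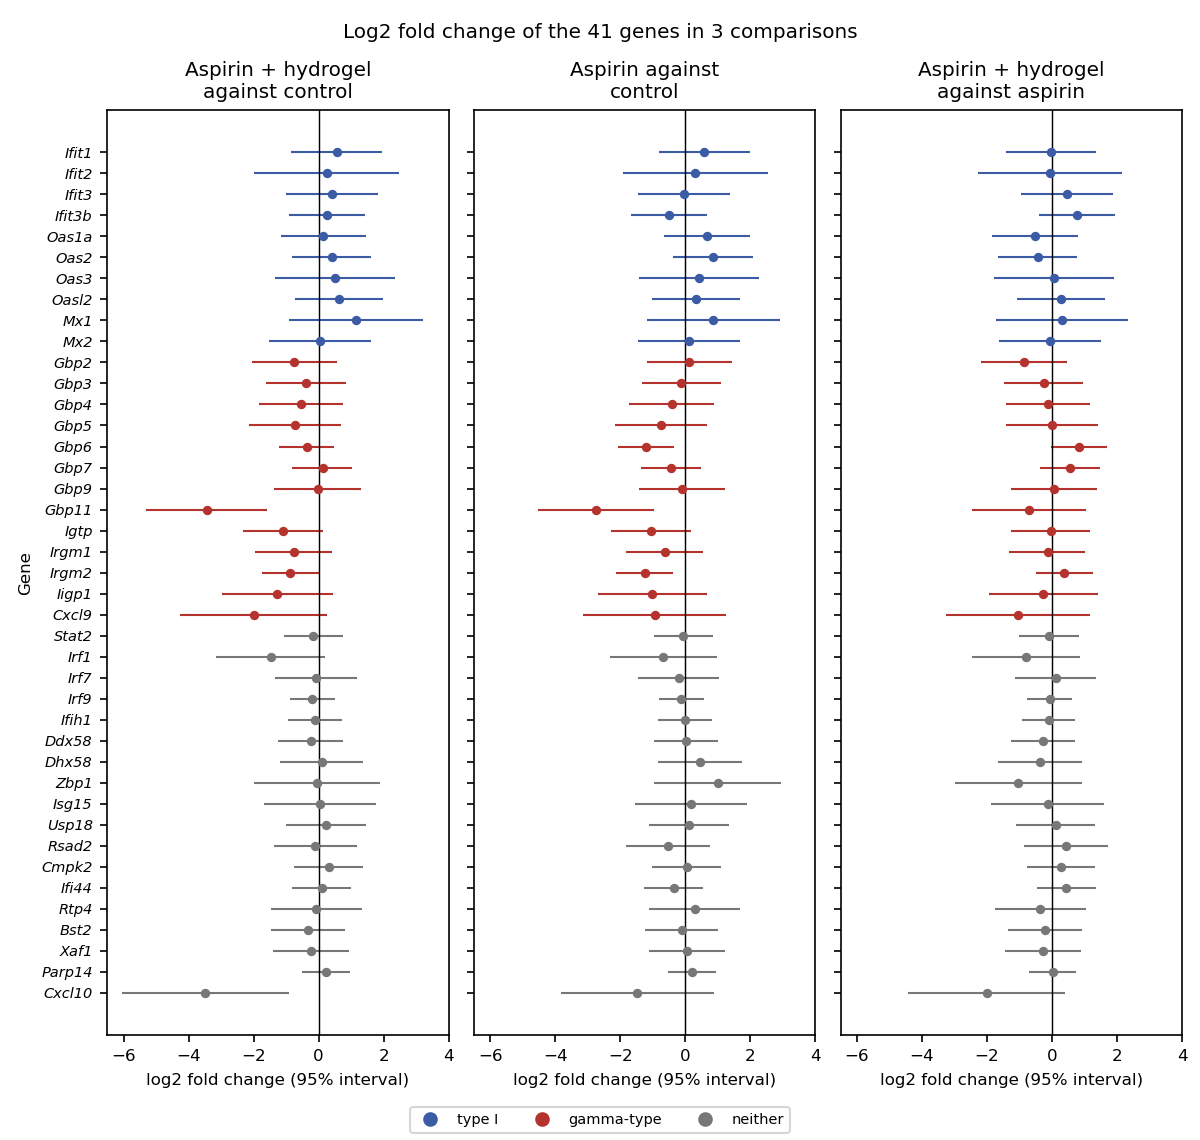
Log2 fold changes with 95% intervals for the 41 genes in Hydrogel against Control (left), Aspirin against Control (middle) and Hydrogel against Aspirin (right), coloured by class. Gbp11 and Cxcl10 are the genes whose interval excludes 0 on the left, Gbp11, Gbp6 and Irgm2 those in the middle, and every interval on the right spans 0.

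Control replicate 3 carried much of the gamma-type difference. It was the highest of the 9 libraries for 9 of 13 gamma-type genes, for 0 of 10 type I genes, and for 2 of the 18 others (Irf1 and Cxcl10), compared with 7.08% of all genes tested. Relative to the other 2 Control mice its gamma-type genes had a median log2 difference of 1.18, its type I genes of -0.04 and all genes of -0.01. Without it, the gamma-type median in Hydrogel against Control was -0.23, with 9 of 13 genes below 0, and the gamma-type minus type I difference was -0.69 instead of -1.15. In Aspirin against Control the median without it was -0.02, with 7 of 13 genes below 0, and the difference was -0.36 instead of -1.12. Control replicate 3 also held the most interferon gamma reads: Ifng had 8, 12 and 0 counts in the Hydrogel mice, 8, 4 and 2 counts in the Aspirin mice and 3, 6 and 28 counts in the Control mice, too few for the gene to be tested. The summed CPM of 20 T and NK cell genes was 58.7, 136 and 13.7 in the Hydrogel mice, 284, 20.6 and 15.1 in the Aspirin mice and 270, 67.4 and 45 in the Control mice, so Control replicate 3 was the lowest Control mouse for the sum, most of which came from T-cell genes such as Lck, Trbc2 and Cd3e. The NK-cell and cytotoxic genes of the list were mixed among the Control mice. Gzmb, Klrb1c, Gzma and Tbx21 were highest in Control replicate 3. The granzyme gene Gzmb had 1.2, 0.625 and 3.52 CPM in the Control mice and the NK-cell receptor gene Klrb1c 0.979, 0.491 and 1.75 CPM. Nkg7, Prf1, Klrk1, Eomes and Ncr1 were highest in Control replicate 1 instead. Nkg7 had 5.3, 2.19 and 2.79 CPM and Prf1 2.99, 0.692 and 1.77 CPM in the Control mice. The part of these cells in the result was not tested.

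**Figure D5:**
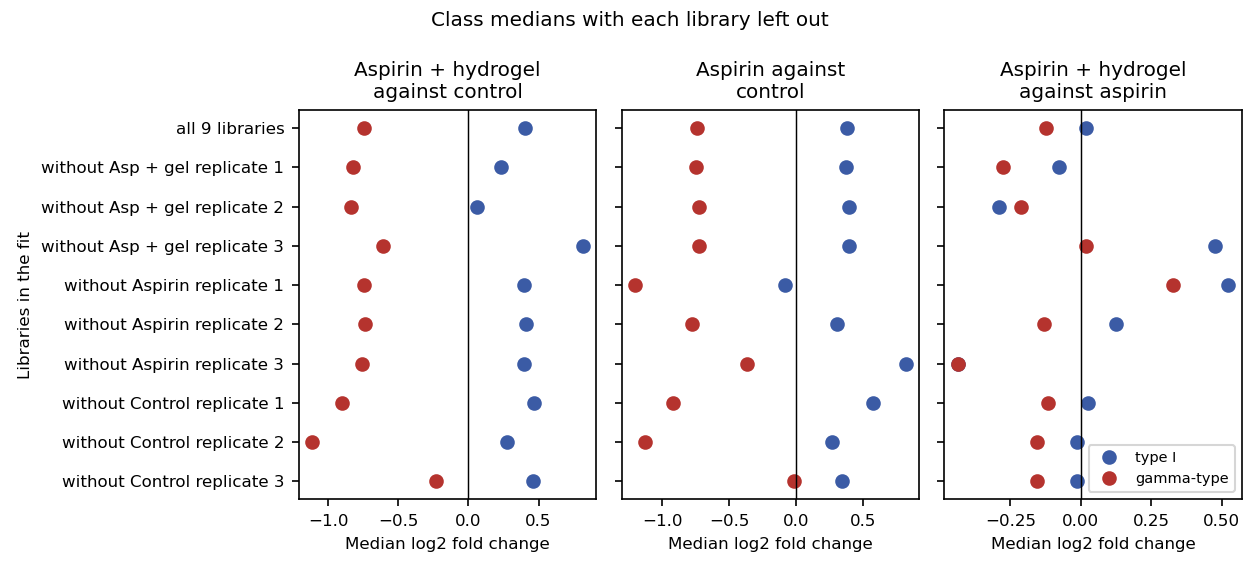
Median log2 fold change of the type I and gamma-type classes in the 3 comparisons with all 9 libraries and with each left out in turn. The gamma-type medians against Control shrink to -0.23 and -0.02 without Control replicate 3, and the type I median in Aspirin against Control is -0.09 without Aspirin replicate 1.

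The type I values rested on other mice. Hydrogel replicate 3 was the lowest library for 22 of the 41 genes and Aspirin replicate 3 for 17, where 22.8% and 7.58% of all genes had their lowest value. Each library was set against the mean log2 CPM of the other 2 mice of its group. Hydrogel replicate 3 was below that mean for 10 of 10 type I genes (median log2 difference -2.12) and for 10 of 13 gamma-type genes (-0.81). It was above that mean for 47.5% of all genes tested. Aspirin replicate 3 was below the mean of its other 2 mice for 10 of 10 type I genes (-1.69) and for 13 of 13 gamma-type genes (-1.43). It was above that mean for 48.7% of all genes tested. Aspirin replicate 1 was the highest library for 15 of the 41 genes (36.6%), against 29.2% of all genes tested. Aspirin replicate 3 is also the mouse whose first code number differs from the rest of its group, and what that number stands for is not stated. Without Hydrogel replicate 3 the type I median in Hydrogel against Control was 0.82; without Hydrogel replicate 2 it was 0.06. Without Aspirin replicate 3 the medians in Aspirin against Control were 0.82 for type I and -0.37 for gamma-type genes, with 15 of 41 genes below 0. Without Aspirin replicate 1 the type I median was -0.09, with 36 of 41 genes below 0.

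Markers of several cell types differed between these libraries, not all in the same way. The summed CPM of 14 monocyte and macrophage genes was 833, 1130 and 548 in the Hydrogel mice, 2540, 2310 and 1160 in the Aspirin mice and 916, 553 and 1430 in the Control mice. In both treated groups this sum was lowest in replicate 3. Muscle-fibre genes summed to 148000, 165000 and 279000 CPM in the Hydrogel mice, 21500, 126000 and 230000 CPM in the Aspirin mice and 90400, 139000 and 195000 CPM in the Control mice. This sum was highest in replicate 3 of every group and lowest in Aspirin replicate 1. In Hydrogel replicate 3 Myh4 alone held 122000 CPM of it. Myh1, Myh2 and Mb were lowest in replicate 3 within the Hydrogel group, while the other genes of the list were highest there. Among the Control mice Myh1 and Myh2 were highest in replicate 1. B-cell genes summed to 53.4, 122 and 2.24 CPM in the Hydrogel mice, 1250, 7.82 and 3.17 CPM in the Aspirin mice and 417, 74 and 5.06 CPM in the Control mice. Dendritic-cell genes, from 8 markers, summed to 34.6, 49 and 14.6 CPM in the Hydrogel mice, 81.3, 46 and 18.2 CPM in the Aspirin mice and 73.5, 22.2 and 85.1 CPM in the Control mice. Like the monocyte sum, the B-cell and dendritic-cell sums were lowest in replicate 3 of each treated group. Single dendritic-cell genes did not all follow their sum. Itgax alone held 71.7 CPM in Control replicate 3, while Flt3, Clec9a, Siglech and Ccr7 had their lowest Control value there. Cd209a was highest in replicate 3 within the Hydrogel group, and Zbtb46 was highest in replicate 3 within the Aspirin group. Neutrophil genes, from 10 markers, summed to 34.7, 20.3 and 11.2 CPM in the Hydrogel mice, 424, 32.8 and 185 CPM in the Aspirin mice and 112, 22.7 and 171 CPM in the Control mice, so Aspirin replicate 3 stood well above replicate 2. Mmp9 alone held 105 CPM of the sum in Control replicate 3. Apart from Mmp9 and Csf3r, each neutrophil gene had its highest Control value in replicate 1. Endothelial genes summed to 520, 474 and 326 CPM in the Hydrogel mice, 245, 277 and 331 CPM in the Aspirin mice and 614, 721 and 407 CPM in the Control mice, highest in replicate 3 within the Aspirin group. Fibroblast genes summed to 3810, 5870 and 4490 CPM in the Hydrogel mice, 8670, 9220 and 4810 CPM in the Aspirin mice and 9070, 6420 and 5300 CPM in the Control mice. No gene of these lists was at 0 in all libraries, and the part of cell composition in the interferon values was not tested.

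The signals and receptors upstream were examined with lists of other pathway genes. Of 21 interferon ligand genes, 3 had a count in any library, and none reached the level needed for testing. All 6 receptor genes were tested. Ifngr1, the ligand-binding chain of the interferon gamma receptor, had 21.9, 28.7 and 24.6 CPM in the Hydrogel mice, 35.1, 39.8 and 36.3 CPM in the Aspirin mice and 32.4, 53.9 and 28.8 CPM in the Control mice. The Hydrogel mice lay below every Aspirin and every Control mouse, at log2 fold changes of -0.61 (SE 0.26, 95% interval -1.19 to -0.03, edgeR unadjusted p = 0.0407, adjusted p = 0.987) against Control and -0.56 (SE 0.26, 95% interval -1.14 to 0.02, edgeR unadjusted p = 0.056, adjusted p = 0.458) against Aspirin. Its partner chain Ifngr2 had 53.5, 51.5 and 70.6 CPM in the Hydrogel mice, 56.3, 56.7 and 69.8 CPM in the Aspirin mice and 53, 52.3 and 67.9 CPM in the Control mice.

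Of the type I receptor chains, Ifnar1 had 23.1, 35 and 24.3 CPM in the Hydrogel mice, 32.6, 30.8 and 33.8 CPM in the Aspirin mice and 32.1, 26.8 and 27.1 CPM in the Control mice. Ifnar2 had 19.5, 21.4 and 10.2 CPM in the Hydrogel mice, 34.1, 25.9 and 24.9 CPM in the Aspirin mice and 27.3, 19.5 and 21.9 CPM in the Control mice, with all Hydrogel mice below all Aspirin mice (log2 fold change -0.73 (SE 0.30, 95% interval -1.41 to -0.06, edgeR unadjusted p = 0.0366, adjusted p = 0.453)). The lambda-receptor chain Il10rb, shared with the IL-10 receptor, had 16.4, 10.9 and 10.7 CPM in the Hydrogel mice, 36.8, 35.2 and 16 CPM in the Aspirin mice and 25.6, 11.2 and 19.6 CPM in the Control mice. Ifnlr1 was at or below 2.23 CPM throughout.

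Among 73 further interferon-induced genes, 71 were tested and 0 passed the adjusted threshold in edgeR in any comparison. In Hydrogel against Control 54 of 71 lay below 0 (median -0.30), where 52.9% of all genes tested did. In Aspirin against Control 52 of 71 lay above 0 (median 0.30), where 46% of all genes tested lay below 0. In Hydrogel against Aspirin 62 of 71 lay below 0 (median -0.63), where 53.3% of all genes tested did. Aspirin replicate 1 held the highest value for 53 of the 71 genes (74.6%, against 29.2% of all genes tested), and Hydrogel replicate 3 the lowest for 48 (67.6%, against 22.8%). F830016B08Rik, an interferon-inducible GTPase gene, had 36.6, 65.1 and 252 CPM in the Hydrogel mice, 3.99, 9.18 and 19.3 CPM in the Aspirin mice and 9.5, 16.5 and 40.5 CPM in the Control mice. All Hydrogel mice exceeded all Aspirin mice, at a log2 fold change of 3.45 (SE 0.91, 95% interval 1.39 to 5.51, edgeR unadjusted p = 0.00429, adjusted p = 0.453); DESeq2 gave an adjusted p of 0.00596. Hydrogel replicate 3 was its highest library, in contrast to the low values of that library in most of the 41 genes.

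Socs3, an inhibitor of JAK signalling, had 9, 11.5 and 3.04 CPM in the Hydrogel mice, 45.9, 14.6 and 44.4 CPM in the Aspirin mice and 13.2, 11.6 and 19.9 CPM in the Control mice. Every Hydrogel mouse lay below every Aspirin and every Control mouse, and the log2 fold change in Hydrogel against Aspirin was -2.15 (SE 0.56, 95% interval -3.43 to -0.87, edgeR unadjusted p = 0.00417, adjusted p = 0.453); DESeq2 gave an adjusted p of 0.0244. Ifitm1, an antiviral membrane protein gene, had 2.01, 3.51 and 0.601 CPM in the Hydrogel mice, 45.9, 2.41 and 15.6 CPM in the Aspirin mice and 5.82, 2.14 and 2.73 CPM in the Control mice. Within the Aspirin group Socs3, Ifitm1 and the neutrophil sum given above were all higher in replicates 1 and 3 than in replicate 2; the part of neutrophils in these values was not tested. Isg20, an exonuclease gene, had 2.25, 3.87 and 2.57 CPM in the Hydrogel mice, 12.1, 7.45 and 2.74 CPM in the Aspirin mice and 5.03, 4.15 and 8.64 CPM in the Control mice, with all Hydrogel mice below all Control mice (log2 fold change -1.03 (SE 0.53, 95% interval -2.24 to 0.17, edgeR unadjusted p = 0.0829, adjusted p = 0.987)). Daxx had 11.1, 13.7 and 8.74 CPM in the Hydrogel mice, 15, 17.3 and 9.46 CPM in the Aspirin mice and 15.4, 13.6 and 22.6 CPM in the Control mice, and its groups overlapped.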

How the data were processed

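Leg muscle RNA of 9 mice was sequenced after library preparation with a SMARTER mRNA kit, as the labels' protocols state. The deposited files are a table of raw counts per gene, with 1 column for each mouse, and a table of FPKM values that the authors scaled by gene length and library size. Per the submitters' processing notes the genome build was mm10; how reads were aligned and counted, and whether by strand, is not given in the sources used here. For 10432 genes of at least 100 counts in every library, 99.3% of rescaled count to FPKM ratios were within 1% of the median of their gene, so the tables hold the same reads.

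Groups came from the treatment labels. Counts were tested with edgeR 4.0.16 (R 4.3.3, limma 3.58.1): genes were kept by filterByExpr (minimum count 10, minimum total 15), libraries scaled by TMM, and 1 quasi-likelihood fit made over all 9 libraries with group as the only term, with Benjamini-Hochberg adjustment over the 18259 genes tested and a threshold of 0.05. SEs and 95% intervals come from that fit. Class levels are means of log2 CPM with a prior count of 1. The scripts were tested on simulated data. Counts of 2 libraries always differed by more than sampling noise, with a chi-square per degree of freedom of at least 77.8, so none was counted as a repeat deposit. Alternatives were DESeq2 1.42.0, other scalings, no filter, FPKM (log2 of value plus 0.1), a replicate block, broader classes, a minimum mean of 1 CPM, the 6 libraries compared, and each library left out.

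The 41 genes, the classes and all lists were chosen with earlier results of these data known. Values in every library are given for a set list of genes spanning all roles and, in each comparison, for the 3 genes of smallest unadjusted p in each class and among the rest; other genes shown in full (Ifit2) were chosen after their values were seen. Of the other pathway lists, ligands, receptors and the 3 of smallest p averaging at least 1 CPM are named, plus Gbp8 for its sequence shared with Gbp11. Positions and biotypes are from GENCODE vM21 (mm10), and shared 50-base stretches were counted over its transcripts.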

Additional observations from a re-analysis of the deposited data

How the results depend on the processing

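Leaving 1 library out, scaling and the choice of tool mattered most. DESeq2 called 18 genes in Hydrogel against Control, 102 in Aspirin against Control, 156 in Hydrogel against Aspirin and 151 for any difference, where edgeR called 0 each time; edgeR's counts at an unadjusted p under 0.05 were 716, 1183, 1996 and 1272. With the replicate block edgeR called 1 gene in Hydrogel against Aspirin, F830016B08Rik, at an adjusted p of 0.0443. The labels do not say whether the replicate numbers pair the samples. The block did not use the second code number, so it does not test a pairing by that code. Over 9 same-number pairs the correlation of deviations ran from -0.335 to 0.54, and 7 of them exceeded 0.1. Different-number pairs ran from -0.527 to 0.484. Those at 0.484, 0.441, 0.353, 0.308, 0.179 and 0.136 also exceeded 0.1, and the rest lay below it. These correlations do not settle whether the samples are paired. Under the block the type I medians against Control were 0.10 for Hydrogel and 0.07 for Aspirin.

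With each library left out, edgeR called 0 to 2 genes in Hydrogel against Aspirin (2 without Aspirin replicate 3) and 0 to 1 for any difference (1 without Aspirin replicate 2). The gamma-type minus type I difference in Aspirin against Control ran from -1.50 without Control replicate 1 to -0.36 without Control replicate 3. In Hydrogel against Control it ran from -1.42 to -0.69, and in Hydrogel against Aspirin from -0.46 to 0.08. The median of all 41 genes ran from -0.36 to 0.20 in Hydrogel against Control, from -0.49 to 0.27 in Aspirin against Control and from -0.44 to 0.33 in Hydrogel against Aspirin, so its sign depended on single mice. The cause was not tested.

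The number of the 41 genes below 0 moved from setting to setting. In Aspirin against Control it was 23 with all libraries, 36 without Aspirin replicate 1 and 15 without Aspirin replicate 3. In Hydrogel against Control it was 24 with all libraries, 31 without Hydrogel replicate 2 and 17 without Hydrogel replicate 3. In Hydrogel against Aspirin it was 25 with all libraries, 39 with library size alone and 8 without Aspirin replicate 1. Among the few genes of smallest p followed singly in each comparison, 5 values turned sign. Cxcl10 in Aspirin against Control ran from -1.97 without Control replicate 1 to 1.10 without Control replicate 3. Zbp1 ran from -0.30 without Aspirin replicate 1 to 1.49 without Aspirin replicate 3 in Aspirin against Control, and from -1.68 without Hydrogel replicate 2 to 0.24 without Aspirin replicate 1 in Hydrogel against Aspirin. With library size alone, Gbp7 stood at -0.08 and Ifi44 at -0.045 in Hydrogel against Aspirin. The broad classes gave gamma-type minus type I differences of -0.86 and -0.83 against Control. The broad type I medians were 0.09 for Hydrogel and 0.08 for Aspirin, where the narrower class gave 0.41 and 0.38. Of the 24 broad type I genes, 9 lay below 0 in each of these comparisons. The broad gamma-type medians were -0.77 and -0.74. The lean of type I genes above Control was thus weaker in the broad class. With 3 mice a group and a common biological coefficient of variation of 0.503, SEs of the members' log2 fold changes in Hydrogel against Control ran from 0.31 to 1.13. Depth limits the values of Gbp11, with as few as 2 counts, and of Ifng.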

Other observations

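Per length of transcript, the 41 genes covered a wide range of levels. Averaged over the 9 libraries, the deposited FPKM was highest for Bst2 at 24.3, followed by Igtp at 13.2, Gbp2 at 12, Ifit3 at 10.9 and Irgm2 at 10.8. It was lowest for Ifi44 at 0.373, Oas3 at 0.475, Mx2 at 0.542 and Gbp11 at 0.573. Among the Gbp genes Gbp2 was followed by Gbp3 at 5.80, and among the Ifit genes Ifit3 exceeded Ifit1 at 2.88 and Ifit2 at 2.73.

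Further GTPase genes outside the 41, picked after their values were seen, were also highest in Control replicate 3. Tgtp2, a T-cell specific GTPase gene, had 10.4, 10.8 and 3.07 CPM in the Hydrogel mice, 25.7, 18.7 and 3.34 CPM in the Aspirin mice, and 14.3, 7.13 and 47.5 CPM in the Control mice. Tgtp1 had 9.48, 8.25 and 2.07 CPM in the Hydrogel mice, 18.8, 7.68 and 2.40 CPM in the Aspirin mice, and 10.9, 4.51 and 35.3 CPM in the Control mice. Of the 71 further interferon-induced genes tested, 6 had their highest value in Control replicate 3, against 53 in Aspirin replicate 1.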
